A study of Mus musculus with 19 samples.

Results

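The microRNAs (miRNAs) mmu-miR-143, mmu-miR-145, mmu-miR-199a-3p, mmu-miR-199a-5p, mmu-miR-199b* and mmu-miR-214 (written below without mmu, for mouse), known from fibroblasts, hepatic stellate cells and smooth muscle, were followed in the liver of mice given dibenz[a,h]anthracene. They were chosen by their names in the scanner files and made up 6 of 696 miRNAs on the array. The study asked whether hepatic miRNAs respond to this polycyclic aromatic hydrocarbon, a mutagenic combustion product that binds the aryl hydrocarbon receptor. Male MutaMouse animals (transgenic mouse strain 40.6, which carries a bacterial reporter gene for mutation assays in every cell) were 10 weeks old. Each was gavaged daily for 28 days with olive oil alone (control) or with dibenz[a,h]anthracene dissolved in it at 6.25 (low), 12.5 (middle) or 25 (high) mg per kg body weight per day, and a part of the liver was collected 3 days later. All groups share the strain, the sex and the olive oil vehicle. An Agilent array read in a single colour was hybridized per mouse, giving 5 arrays for control, 5 for low, 4 for middle and 5 for high dose, where the labels describe 5 animals per dose. Replicates are named by the sample numbers of the labels.

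A miRNA is a short RNA that guides the silencing machinery to messenger RNAs that pair with its seed, the bases 2 to 8 from its 5′ end. miR-143 and miR-145 are cut from one primary transcript that is abundant in smooth muscle, where they hold cells in the contractile state. miR-199a and miR-214 are cut from the long non-coding RNA Dnm3os, which is expressed in mesenchymal cells, and in liver both are known from hepatic stellate cells and from fibrosis. miR-199b lies in another dynamin gene and shares most of its sequence with miR-199a.

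The mature sequences of 3 of the 6 miRNAs were matched in RefSeq (GRCm38.p6) and are shown with the seed in capitals, since the arms of the miR-199 hairpins and their near copies decide what a probe can tell apart.
miR-199a-5p: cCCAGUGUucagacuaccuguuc
miR-199a-3p: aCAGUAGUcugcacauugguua
miR-214: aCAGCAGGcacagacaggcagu
The 3 seeds differ. Both arms of miR-199a are made from 2 genes, Mir199a-1 (chr9:21496495-21496564, within the dynamin gene Dnm2) and Mir199a-2 (chr1:162217814-162217923). Mir214 lies at chr1:162223368-162223477, 5444 bases from Mir199a-2, and both are within Dnm3os (chr1:162217623-162225550) on the plus strand, opposite the dynamin gene Dnm3.

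The hairpin of Mir199b (chr2:32318460-32318569, plus strand, within the dynamin gene Dnm1) is 110 bases long and is shown with its best match to miR-199a-5p in capitals.
Mir199b: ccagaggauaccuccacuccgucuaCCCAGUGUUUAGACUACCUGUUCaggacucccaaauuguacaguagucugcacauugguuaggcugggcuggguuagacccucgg
The match differs from miR-199a-5p at 1 of 23 bases, C10U, counted from the 5′ end of miR-199a-5p. The hairpin also holds the complete sequence of miR-199a-3p, so the signal of miR-199a-3p cannot be assigned to 1 of the 3 genes. How far the probes of miR-199a-5p and miR-199b* bind each other's target was not tested.

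The promoter of Dnm3os, the shared host of miR-199a and miR-214, is shown because the levels of these miRNAs were correlated across arrays, though no more than those of many other pairs, as described further on (chr1:162217373-162217672, plus strand, GRCm38.p6, 300 bases around the start; capitals mark a CArG box, the motif bound by serum response factor in smooth muscle genes).
Dnm3os: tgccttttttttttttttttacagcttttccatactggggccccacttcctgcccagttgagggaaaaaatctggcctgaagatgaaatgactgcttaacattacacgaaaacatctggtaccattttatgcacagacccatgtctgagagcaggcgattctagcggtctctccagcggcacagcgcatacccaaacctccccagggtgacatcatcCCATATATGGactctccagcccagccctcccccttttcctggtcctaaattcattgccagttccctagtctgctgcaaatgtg
A CArG box was searched on both strands and occurred once here, from base 218 to base 227. It was present in 1.63% of 32851 promoters of the same length. The E-box letters CANNTG, bound by basic helix-loop-helix factors, occurred 3 times here and in 72.3% of those promoters. These matches describe the letters and say nothing of binding.

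Array signal was not equal between groups. The 75th percentile of signal over probes detected on every array was 349 ± 111 (SD, n = 5) intensity units in controls, 295 ± 77.1 (n = 5) at the low dose, 211 ± 56.4 (n = 4) at the middle dose and 188 ± 33.5 (n = 5) at the high dose. Spike-in RNAs added at labelling were at 10.9 ± 0.21 in controls and 10.1 ± 0.16 at the high dose (log2 intensity). A level below means log2 of a probe's intensity over that percentile of its array, with a floor at -4.78, so a level compares 1 miRNA across arrays and not 1 miRNA with another. A miRNA counted as detected on an array where at least 50% of the spots of a probe were well above background, and 176 miRNAs detected on at least 4 arrays were tested. The number detected per array was 166 ± 10.4 (SD, n = 5) in controls and 165 ± 12.8 (n = 5) at the low dose. It was 139 ± 8.06 (n = 4) at the middle dose and 138 ± 12.2 (n = 5) at the high dose. The hepatocyte miRNA miR-122 lay between 6.41 and 7.01 (log2 level) on every array. Markers of pancreas, 4 of 4, were detected on no array. The liver pieces are bulk tissue, in which fewer cells of a type and less RNA per cell cannot be told apart.

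At no dose did a tested miRNA of the 6 differ from control past the threshold. Of the 6 miRNAs, 5 were tested, and 0 of 5 passed an adjusted p of 0.05 (limma, all 176 miRNAs, Benjamini-Hochberg) at the low, middle or high dose. Over all tested miRNAs, 7.95% passed at the low dose, 7.39% with the middle dose and 9.66% with the high dose. Almost all of these calls were higher (14 of 14, 13 of 13 and 16 of 17), but the split depended on scaling: with the percentile over all probes 1 was higher and 38 lower at the middle dose, and without scaling 1 was higher and 78 lower at the high dose. Without adjustment, 0, 2 and 0 of the 5 had a p under 0.05 at the 3 doses, against 16.5%, 30.1% and 31.8% of all tested miRNAs. The test for any difference among the 4 groups gave 0 of 5 with adjustment, against 7.39% of all tested miRNAs, and 2 of 5 without, against 31.8%. A linear trend over dose gave 0 of 5 either way, against 1.14% with adjustment and 29.5% without. The median log2 change of the 5 was 0.18, 0.35 and -0.05 at the low, middle and high dose, against 0.11, 0.15 and 0.12 over all 176. Without scaling it was -0.01, -0.07 and -0.78 against -0.05, -0.34 and -0.53, and with scaling by the labelling spike-ins 0.12, 0.21 and 0.01 against 0.07, 0.01 and 0.18.

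**Figure D1:**
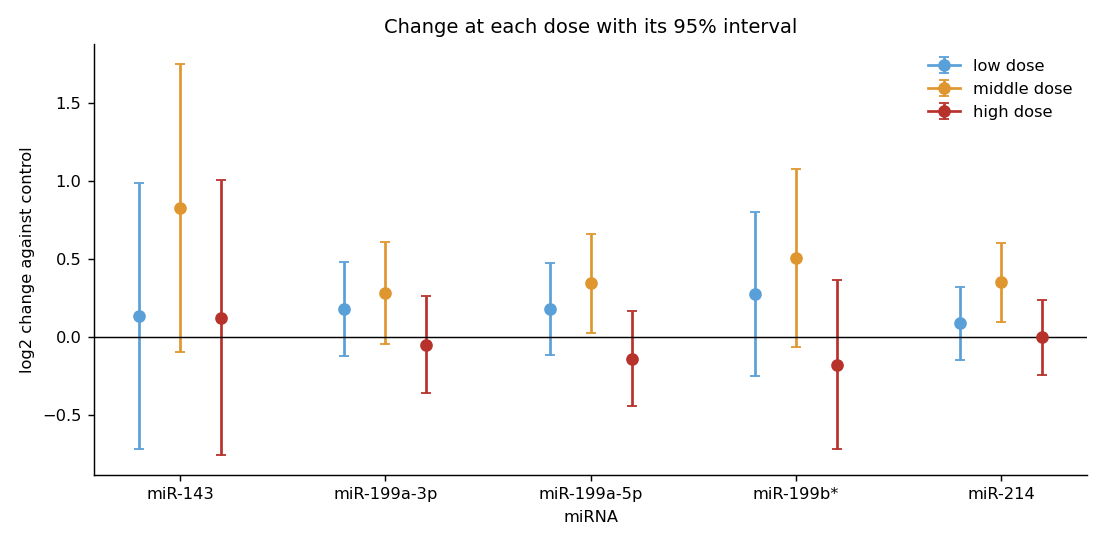
Log2 change of each tested miRNA at the low, middle and high dose against control, from limma with the slide as a block, with its 95% confidence interval. At the middle dose the 5 changes lie between 0.28 and 0.83, and the intervals of miR-199a-5p and miR-214 lie above 0, while neither passes after adjustment over 176 miRNAs.

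miR-143, the smooth muscle member, was detected on all 19 arrays. Its levels in controls 1, 10, 17, 19 and 22 were -3.00, -3.46, -3.40, -3.46 and -2.79. In low dose replicates 3, 11, 12, 18 and 24 they were -2.84, -3.10, -3.06, -3.31 and -3.21, all within the control range. Middle dose replicates 5, 6, 14 and 20 gave -3.54, -2.96, -1.63 and -1.59, and high dose replicates 7, 8, 15, 16 and 23 gave -3.49, -1.86, -3.32, -3.64 and -3.36. Thus 2 of 4 middle dose livers and 1 of 5 high dose livers lay above every control, and 1 and 2 lay below every control. The group means in descending order were -2.43 ± 0.98 (SD, n = 4) at the middle dose, -3.10 ± 0.18 (n = 5) at the low dose, -3.13 ± 0.72 (n = 5) at the high dose and -3.22 ± 0.31 (n = 5) in controls, and no neighbours differed beyond their spread.

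The fitted log2 changes of miR-143 were 0.13 ± 0.40 (SE) at the low dose (limma adjusted p = 0.919), 0.83 ± 0.43 at the middle dose (adjusted p = 0.205) and 0.12 ± 0.41 at the high dose (adjusted p = 0.857). At the middle dose this is 1.77-fold, with a 95% interval from 0.934 to 3.37. By slide, middle dose minus control was -0.25 on slide 1, with 2 middle dose arrays, and 1.82 and 1.63 on slides 2 and 3, with 1 each. Middle dose replicates 14 and 20 and high dose replicate 8 held the 3 highest levels of miR-143. Leaving them out was chosen for that reason, so lower changes follow from the choice. Without them the middle dose change was -0.18 and the high dose change -0.23, given as a description with no test.

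Those 3 livers stood apart from the other 16 arrays. Their miR-143 intensities were 65.4, 97.6 and 59.7 in middle dose replicate 14, middle dose replicate 20 and high dose replicate 8, and the other arrays ran from 11.0 to 69.7. On the scaled log2 level the lowest of the 3 was 0.93 above the highest of the other 16. The second probe of miR-143 gave -2.63, -2.50 and -2.92 there and at most -3.78 elsewhere, and the authors' deposited value table gave 6.44, 6.55 and 6.30 against at most 6.00. The levels were 3.01-fold, 3.11-fold and 2.57-fold the control mean. The 3 arrays lay on 3 different slides, as 1 array each on slides 2, 3 and 1. The residual spread of miR-143, its SD with slide and group removed, was 0.65 and ranked 8 of 176 tested miRNAs, where the median was 0.17.

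**Figure D2:**
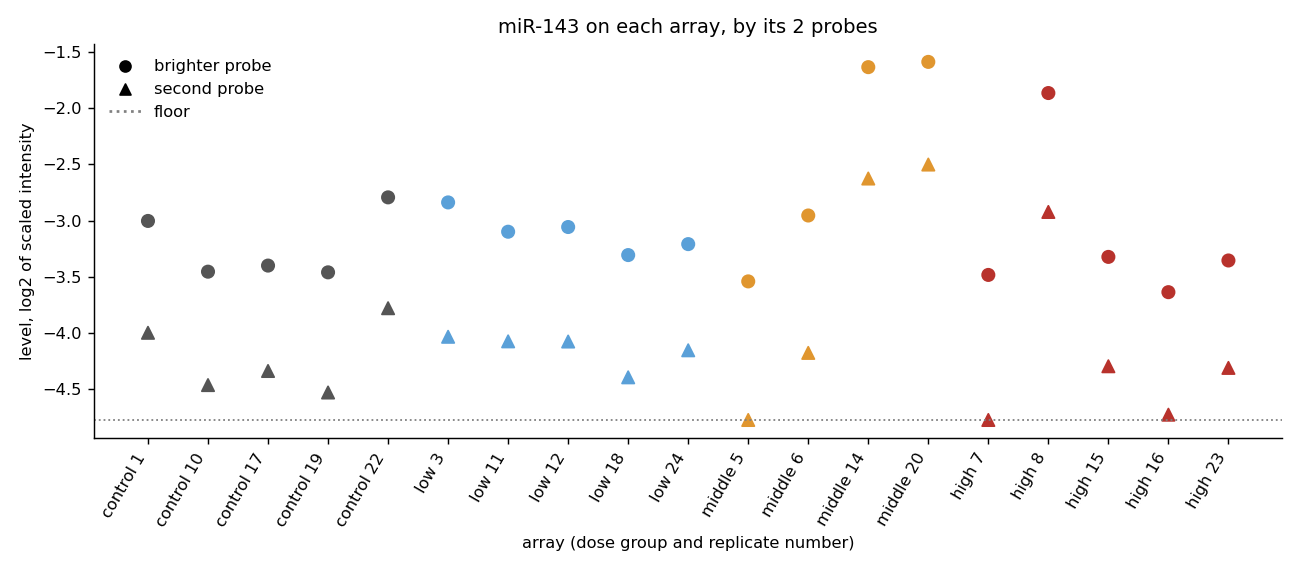
Level of miR-143 (log2 of scaled intensity) on each of the 19 arrays, ordered by dose group and replicate number, for its brighter probe (circles) and its second probe (triangles), with the floor dotted. Middle dose replicates 14 and 20 and high dose replicate 8 are the 3 highest by both probes.

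Markers of other cell types were high in some of these 3 livers, and not the same ones in each. miR-200a, an epithelial miRNA that in liver marks bile ducts, was at 0.09 in high dose replicate 8 and -2.08 in middle dose replicate 14, but at -4.13 in middle dose replicate 20, where the median of the other 16 arrays was -3.63. miR-1, a miRNA of skeletal and heart muscle, was at 0.80 in middle dose replicate 20, -2.61 in high dose replicate 8 and -4.09, below detection, in middle dose replicate 14. Outside the 3 livers, low dose replicate 3 and middle dose replicate 6 had miR-200a at -0.87 and -1.43 with miR-143 at -2.84 and -2.96. Control replicate 22 and low dose replicate 11 had miR-1 at 1.21 and 1.73 with miR-143 at -2.79 and -3.10. Control replicate 22, low dose replicate 3, middle dose replicate 6 and low dose replicate 11 ranked 4, 5, 6 and 9 of the 19 arrays in miR-143. All of these were above its median of -3.32 over the 16 arrays. Control replicate 1 and low dose replicate 12 ranked 7 and 8, with miR-1 at the floor and miR-200a at -3.01 and -3.34.

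For the 2 marker lists as a whole, the summed scaled level of 5 bile duct miRNAs, all 5 detected on some array, ran from 0.11 to 0.26 in controls, 0.14 to 1.44 at the low dose, 0.12 to 1.07 at the middle dose and 0.12 to 2.91 at the high dose. The summed level of 4 muscle miRNAs, all 4 detected on some array, ran from 0 to 3.36, 0 to 4.66, 0 to 2.53 and 0 to 0.22 in the same order. In middle dose replicates 14 and 20 and high dose replicate 8 the bile duct sum was 0.70, 0.12 and 2.91 and the muscle sum 0.06, 2.53 and 0.22. Of the muscle list miR-133a was at the floor in middle dose replicate 14 and high dose replicate 8. The part of either cell type in the levels of miR-143 was not tested.

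**Figure D3:**
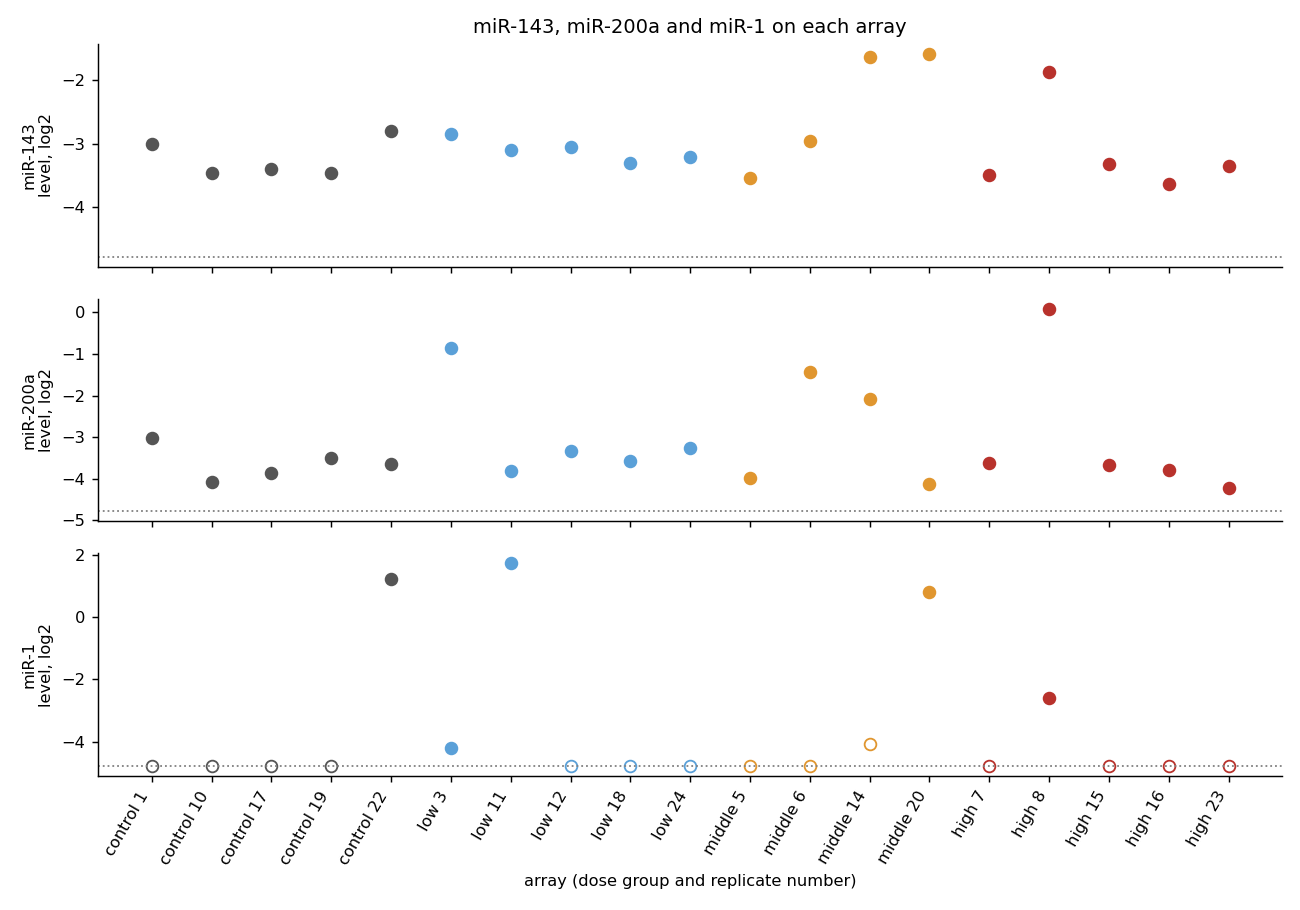
Levels (log2 of scaled intensity) of miR-143, the epithelial miR-200a and the muscle miR-1 on each of the 19 arrays, with open circles where a miRNA was not detected and the floor dotted. miR-200a is at -2.08 or above in 2 and miR-1 is detected in 2 of the 3 livers with the highest miR-143. The other livers where either is high have miR-143 between -3.10 and -2.79, above its median of -3.32 over the other 16 arrays. Control replicate 1 and low dose replicate 12 lie in that range too, with miR-1 not detected and miR-200a at -3.01 and -3.34.

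miR-145, cut from the same transcript as miR-143, was detected on 0 of 19 arrays by either probe. All 19 of its levels were at the floor, so no change was computed. Its intensity before scaling ran from -0.32 to 5.47, with a median of 0.92. The highest value, 5.47, was in middle dose replicate 20, which also had the highest miR-143, and its second probe gave 5.09 there. In the other arrays above every control in miR-143 the intensity of miR-145 was 1.49 (middle dose replicate 14) and 2.01 (high dose replicate 8), within the control range of -0.01 to 2.47. miR-145* and miR-214*, other arms of these hairpins on the array, were detected on no array.

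miR-199a-3p, a miRNA known to be lower in liver tumours, was detected on all 19 arrays by both of its probes. Its levels were -1.33, -2.01, -2.04, -1.70 and -1.65 in controls 1, 10, 17, 19 and 22. They were -1.42, -1.46, -1.70, -1.74 and -1.40 in low dose replicates 3, 11, 12, 18 and 24. They were -1.56, -1.28, -1.04 and -1.64 in middle dose replicates 5, 6, 14 and 20, and -1.73, -1.41, -1.84, -1.65 and -1.98 in high dose replicates 7, 8, 15, 16 and 23. All low and high dose arrays lay inside the control range, and 2 of 4 middle dose arrays lay above it.

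The means of miR-199a-3p were -1.38 ± 0.28 (SD, n = 4) at the middle dose, -1.54 ± 0.16 (n = 5) at the low dose, -1.72 ± 0.22 (n = 5) at the high dose and -1.75 ± 0.29 (n = 5) in controls, each within the spread of its neighbour. The fitted change was 0.18 ± 0.14 (SE) at the low dose (limma adjusted p = 0.625), 0.28 ± 0.15 at the middle dose (0.212) and -0.05 ± 0.15 for the high dose (0.850). Folds with their 95% intervals were 1.13 (0.920 to 1.40), 1.22 (0.970 to 1.53) and 0.966 (0.779 to 1.20). The intervals thus reached no higher than 1.53-fold and no lower than 0.779-fold.

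Before scaling, the intensity of miR-199a-3p was 103 ± 30.2 (SD, n = 5) in controls and 57.7 ± 15.4 (n = 5) at the high dose, and only high dose replicate 8 (81.9) reached the control range of 81.8 to 154. The fitted change without scaling was -0.78 (limma adjusted p = 0.0221). It was 0.01 with arrays scaled by the labelling spike-ins (0.988). Without scaling the median change over all 176 tested miRNAs at the high dose was -0.53. The part of the lower array signal in the unscaled change of miR-199a-3p was not tested.

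miR-199a-5p, the other arm of the same hairpins, which targets caveolin 1 in fibrosis, was detected on 17 of 19 arrays and missed in 2 of 5 high dose livers. Over all miRNAs the mean number detected per array was 138 at the high dose and 166 in controls. The levels of miR-199a-5p were -3.78, -4.20, -4.24, -3.84 and -4.07 in controls, listed by replicate number as before, and -3.98, -3.58, -4.05, -3.85 and -3.69 at the low dose. At the middle dose they were -3.89, -3.84, -3.25 and -3.71, and at the high dose -4.14, -3.98, -4.16, -4.06 and -4.38. Groups overlapped, with 2 of 5 low dose and 2 of 4 middle dose arrays above every control and 1 of 5 high dose arrays below every control. The fitted change was 0.18 ± 0.14 (SE) at the low dose (limma adjusted p = 0.618), 0.34 ± 0.15 at the middle dose (unadjusted p = 0.0370, adjusted p = 0.133) and -0.14 ± 0.14 at the high dose (0.536).

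The call at the high dose depended on scaling. Quantile normalization gave -0.50 (limma adjusted p = 0.0368) and no scaling -0.85 (0.0171), both past the threshold. Its sign was negative under every scaling tried and turned with normexp background correction, which gave 0.30 (0.440).

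miR-199b*, a product of the Mir199b hairpin under an older name, was detected on 16 of 19 arrays and missed in 3 of 5 high dose livers. At the high dose a mean of 138 miRNAs was detected per array, against 166 in controls. The levels of miR-199b* in controls 1, 10, 17, 19 and 22 were -3.60, -4.36, -4.25, -3.86 and -3.71. Low dose arrays gave -3.65, -3.30, -3.95, -3.92 and -3.55, middle dose arrays -4.06, -3.27, -2.84 and -3.45, and high dose arrays -4.18, -3.40, -4.28, -4.27 and -4.35. Of the middle dose livers 3 of 4 were above every control, and of the high dose livers replicate 8 alone was. The fitted change was 0.27 ± 0.25 (SE) at the low dose (limma adjusted p = 0.648), 0.51 ± 0.27 at the middle dose (0.205) and -0.18 ± 0.25 for the high dose (0.644). Middle dose minus control was -0.06, 1.52 and 0.49 on slides 1, 2 and 3. Its residual SD of 0.40 ranked 18 of 176.

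miR-214, the partner of miR-199a in Dnm3os, which stellate cells are known to export in vesicles and which represses connective tissue growth factor, lay at the limit of detection. It was detected in 5 of 5 control, 4 of 5 low dose, 2 of 4 middle dose and 1 of 5 high dose livers, in the order of the array signal given above. Its level was at the floor on 9 of 19 arrays, 3 of them controls, 2 low dose and 4 high dose. The 2 controls above the floor, replicates 1 and 19, gave -4.59 and -4.66. Low dose replicates 11, 18 and 24 gave -4.45, -4.51 and -4.52, middle dose replicates 5, 6, 14 and 20 gave -4.52, -4.32, -4.02 and -4.61, and high dose replicate 16 gave -4.39.

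The middle dose change of miR-214 had the smallest p of the 15 changes of these miRNAs. It was 0.35 ± 0.12 (SE), 1.28-fold with a 95% interval from 1.07 to 1.52, with an unadjusted p of 0.00986 and a limma adjusted p of 0.0799. Leaving out control replicate 1 gave 0.43 (adjusted p = 0.0338) and leaving out middle dose replicate 20 gave 0.47 (0.0430), both past the threshold. Scaling by the percentile over all probes turned it to -0.06 and no scaling to -0.04. It was 0.17, 0.76 and 0.13 on slides 1, 2 and 3. At the low dose the change was 0.09 ± 0.11 (limma adjusted p = 0.732). Middle dose replicates 5 and 14 carried levels above the floor from spots that were mostly not well above background, and in high dose replicate 16 this held for all 10 spots. Controls 10, 17 and 22 were detected, at intensities of 10.9, 11.3 and 16.8 before scaling, yet their levels were set to the floor. The lowest detected level averaged -5.34 in controls and -4.36 at the middle dose, so the shared floor cut off detected signal in controls. Mean intensity of miR-214 was 11.8 ± 2.96 (SD, n = 5) in controls and 10.2 ± 2.43 (n = 4) at the middle dose. Of the middle dose arrays 0 of 4 were at the floor, so between these 2 groups it raised levels in controls only. The size of its part in the middle dose change was not tested.

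**Figure D4:**
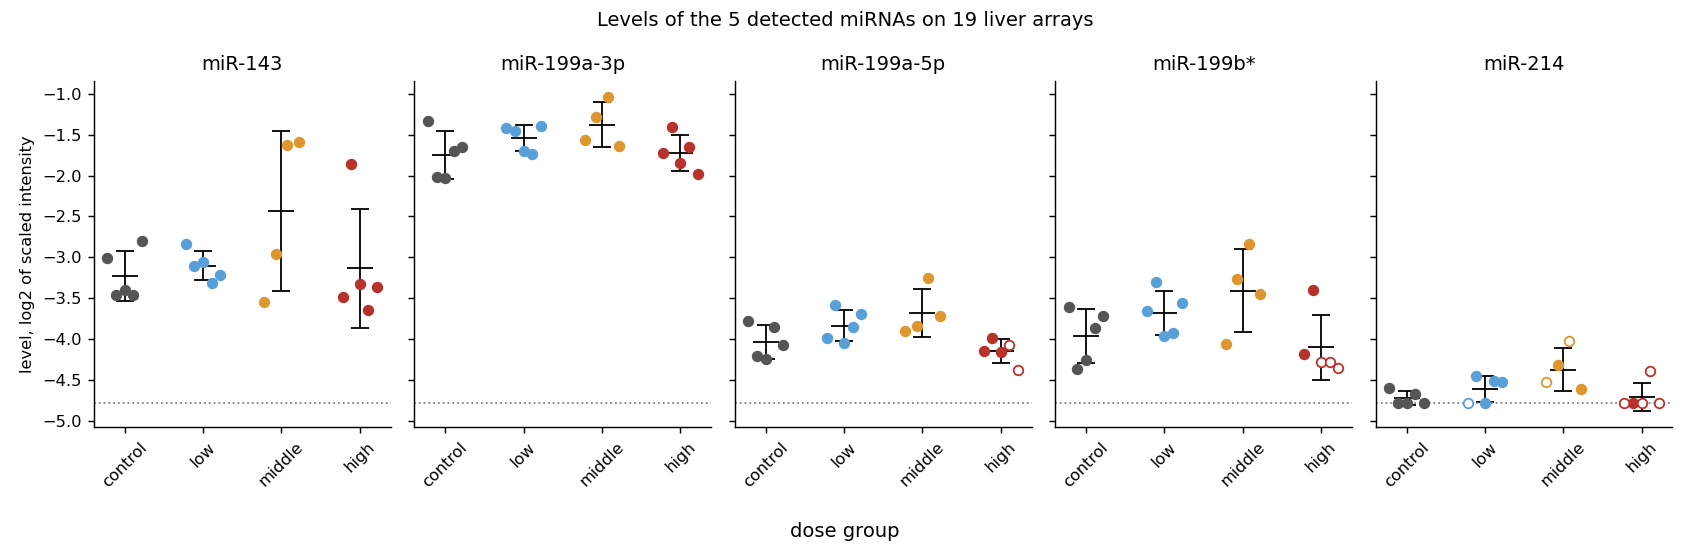
Levels (log2 of scaled intensity) of the 5 detected miRNAs on 19 arrays by dose group, with the mean and SD of each group; open circles are arrays where the miRNA was not detected and the dotted line is the floor at -4.78. Levels are not comparable between panels, and in every panel each dose group overlaps the controls.

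The 3 miR-199 products varied together from mouse to mouse, and their correlations with miR-214 were within the range of other miRNA pairs. Across 19 arrays miR-199a-3p and miR-199a-5p had a Pearson r of 0.82 (permutation p = 1e-05, the smallest that 100000 permutations can give) and a Spearman rho of 0.79 (permutation p = 6e-05). Without the 2 arrays farthest from the median of miR-199a-3p, control replicate 17 and middle dose replicate 14, r was 0.71. Within slides 1, 2 and 3 (6, 6 and 7 arrays) it was 0.79, 0.96 and 0.86, and with slide and group means removed it was 0.87.

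miR-199a-3p and miR-199b* gave an r of 0.89 and a rho of 0.85 (permutation p = 1e-05 and 2e-05), with 0.84 without the same 2 arrays and 0.92, 0.94 and 0.90 within slides. miR-199a-5p and miR-199b*, which differ little in sequence, gave an r of 0.86 and a rho of 0.85 (permutation p = 1e-05 for both), 0.77 without low dose replicate 11 and middle dose replicate 14, and 0.53, 0.99 and 0.89 within slides. miR-214 followed miR-199a-5p with an r of 0.79 and a rho of 0.75 (permutation p = 0.00011 and 0.00039), 0.60 without those 2 arrays and 0.71, 0.87 and 0.84 within slides, while 9 of its values share the floor. Its r was 0.69 with miR-199a-3p (rho 0.60; permutation p = 0.00084 and 0.00752), 0.50 without 2 arrays and 0.49, 0.92 and 0.68 within slides. With miR-199b* its r of 0.62 (rho 0.53, permutation p = 0.0041 and 0.0203) fell to 0.27 without middle dose replicates 14 and 6. Within slides it was 0.36, 0.79 and 0.58, and slide 3 holds neither of those 2 arrays.

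These 6 pairs belong to 10 computed, and over the 10 pairs the adjusted permutation p of r ran from 3.33e-05 to 0.00586 for the 6. The background was high: over 7381 pairs of the 122 miRNAs detected on every array the median r with slide and group means removed was 0.25, and 5% of pairs were above 0.76. By that measure miR-199a-3p with miR-199a-5p (0.87), miR-199a-3p with miR-199b* (0.88) and miR-199a-5p with miR-199b* (0.81) exceeded it, and the pairs of miR-214 with miR-199a-5p (0.70), miR-199a-3p (0.70) and miR-199b* (0.49) did not. Both scaling and slide are shared by all pairs. miR-199a-5p, miR-199b* and miR-214 were detected on 17, 16 and 12 arrays, and so are dimmer than the 122 miRNAs of that background. Whether dim signal and the floor raise or lower their r was not tested. The correlation of the 2 miR-199a arms did not pass under quantile normalization (r = 0.29, adjusted permutation p = 0.253) or in the authors' deposited value table (0.38, 0.131). That of miR-199a-5p with miR-214 did not pass in that table (0.45, 0.0776), and that of miR-199b* with miR-214 did not pass without middle dose replicate 14 (0.41, 0.125).

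**Figure D5:**
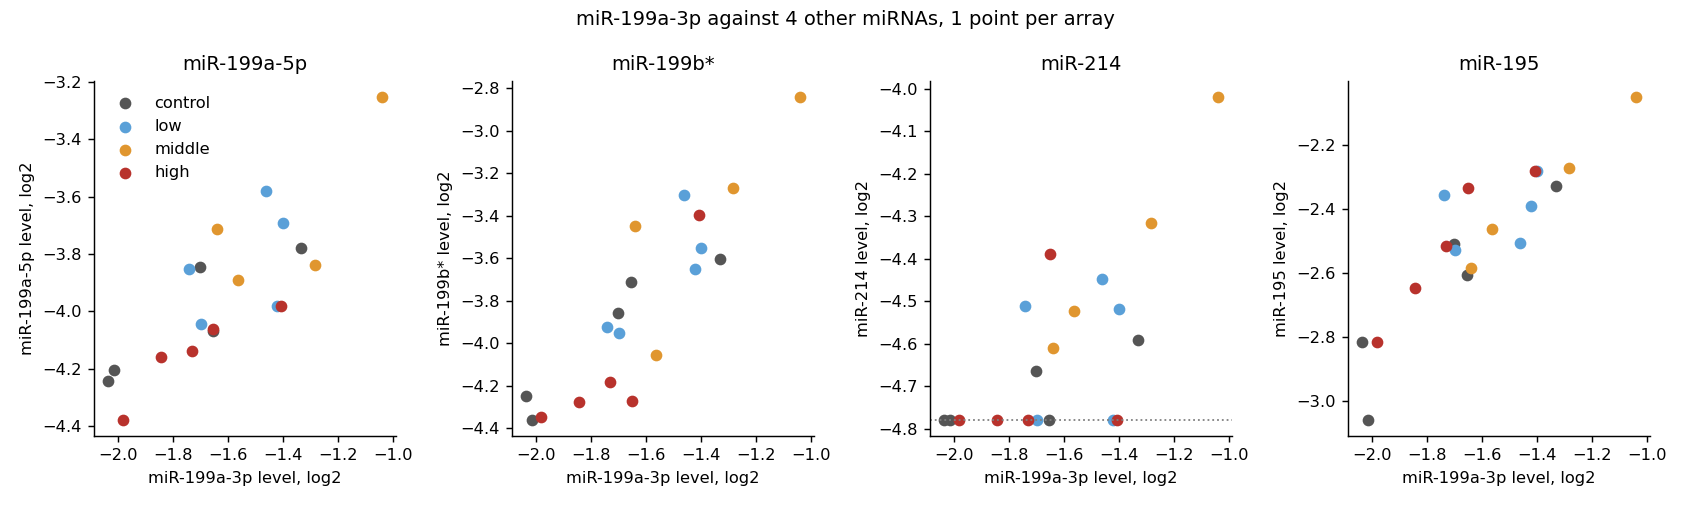
Level of miR-199a-3p (horizontal, log2 of scaled intensity) against miR-199a-5p, miR-199b*, miR-214 and miR-195 on 19 arrays, coloured by dose group, with the floor of miR-214 dotted. Middle dose replicate 14 is the highest point in every panel, and the points of all 4 groups lie along one slope.

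The difference between 2 of these miRNAs on the same array gave no shift with dose past the threshold. The level of miR-199a-3p minus that of miR-199a-5p was 2.28 ± 0.14 (SD, n = 5) in controls, 2.29 ± 0.18 (n = 5) at the low dose, 2.29 ± 0.20 (n = 4) at the middle dose and 2.42 ± 0.10 (n = 5) at the high dose. The largest shift, 0.14 at the high dose, had a two-sided exact permutation p of 0.119 over 252 arrangements, adjusted to 0.714 over 6 such tests. The level of miR-199a-3p minus that of miR-214 shifted by 0.09, 0.01 and 0.01 (exact permutation p = 0.5, 0.921 and 0.960), with miR-214 partly at the floor.

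Because 3 livers stand apart in miR-143, its relations are given over the other 16 arrays. There r was 0.72 with miR-199b* (permutation p = 0.0022, adjusted over 10 pairs 0.0055), 0.54 with miR-199a-3p (0.0310, adjusted 0.0442), 0.31 with miR-199a-5p (0.247, adjusted 0.274) and -0.05 with miR-214 (0.848, adjusted 0.848). Over all 19 arrays with slide and group means removed, r was 0.761 with miR-199b* and 0.53 with miR-199a-3p. Neither exceeded 0.762, above which 5% of the background pairs lay. The r of miR-143 and miR-199a-3p over 19 arrays did not pass under quantile normalization (0.33, adjusted permutation p = 0.215). With the percentile over all probes it was 0.45 and did not pass either (0.0658). In the 3 livers themselves miR-199b* was -2.84, -3.45 and -3.40 and miR-199a-3p was -1.04, -1.64 and -1.41. Middle dose replicate 14 was thus the highest array in all 4 of the miR-199 and miR-214 products, whereas middle dose replicate 20 was within the control range in miR-199a-3p.

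The miRNAs most like each member were named by r with slide and group means removed, among 120 other miRNAs detected on all 19 arrays. They are a description with no test, since the arrays share scaling. miR-199a-3p was most like miR-195 (r = 0.89) and miR-497 (0.87). miR-199a-5p was most like miR-497 (0.83) and miR-195 (0.81), and miR-214 likewise (0.80 and 0.79). miR-195 and miR-497 share a seed and lie 241 bases apart on chromosome 11.
miR-195: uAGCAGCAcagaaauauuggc
miR-497: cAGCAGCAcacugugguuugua
Their seed matches none of the miR-199 or miR-214 seeds above. The third most like was miR-125b-5p for both arms of miR-199a (0.79 and 0.62) and miR-99a for miR-214 (0.63). On the levels themselves r was lower for these: 0.22 and 0.46 for miR-125b-5p with miR-199a-3p and miR-199a-5p, and 0.18 for miR-99a with miR-214.

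miR-143 was most like the epithelial miR-200a (0.68) and miR-200b (0.66), then miR-125b-5p (0.62). miR-199b* was most like miR-125b-5p (0.77), then miR-200a and miR-200b (0.68 each). miR-200a and miR-200b are cut from one transcript and their seeds, shown in capitals, differ by 1 letter.
miR-200a: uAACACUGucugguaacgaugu
miR-200b: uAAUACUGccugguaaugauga
Without the 3 livers the r of the levels of miR-143 was 0.64 with miR-200a, 0.56 with miR-200b and 0.06 with miR-125b-5p, and that of miR-199b* with miR-125b-5p was 0.08.

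Of 16 other miRNAs known from fibroblasts, pericytes and smooth muscle, 9 were detected and tested, and 7 were detected on no array, among them miR-127, miR-379 and miR-218. At the low dose 1 of 9 rose, at the middle dose 0 changed, and at the high dose 1 of 9 rose, the same miRNA, with medians of 0.21, 0.19 and 0.07. Over all tested miRNAs 7.95%, 7.39% and 9.66% were called, so 1 of 9 is near that background. That miRNA was miR-322, known from muscle differentiation and from the same family of seeds as miR-195, at 0.56 ± 0.14 (SE; limma adjusted p = 0.0206) and 0.47 ± 0.14 (0.0495). Under 4 other scalings the low dose change of miR-322 ran from 0.37 to 0.50 and passed under none, and its high dose change turned to -0.26 without scaling and passed under the spike-ins alone. miR-195 itself gave 0.25 ± 0.14 at the low dose (0.392), 0.28 ± 0.15 at the middle dose (0.212) and 0.11 ± 0.14 for the high dose (0.602).

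Among 18 miRNAs linked to stellate cell activation and liver fibrosis, 14 were tested, and 2, 4 and 2 rose at the low, middle and high dose while 0 fell. Over all tested miRNAs 7.95%, 7.39% and 9.66% were called, nearly all of them higher as well. The medians of the 14 were 0.17, 0.06 and 0.05. miR-34a, a target of p53, rose by 1.53 ± 0.29 (SE; limma adjusted p = 0.0093), 3.11 ± 0.31 (1.58e-05) and 3.51 ± 0.30 (1.78e-06) on the log2 scale, and miR-15b rose by 0.23 ± 0.07, 0.33 ± 0.07 and 0.31 ± 0.07 (0.0469, 0.0138 and 0.0136). miR-27a and miR-27b, whose lowering is known to revert stellate cells to the quiescent state, rose at the middle dose by 0.38 ± 0.09 and 0.28 ± 0.08 (0.0195 and 0.0375). The calls of miR-34a at the middle and high dose were kept under 4 other scalings, with changes from 2.54 to 3.57. Its low dose call was lost under quantile normalization (1.36, limma adjusted p = 0.0959), no scaling (1.34, 0.202) and the spike-ins (1.47, 0.0752). Those of miR-15b, miR-27a and miR-27b were kept under none of the 4, and at the middle dose all 3 turned negative without scaling (-0.25, -0.19 and -0.29) and with the percentile over all probes (-0.16, -0.11 and -0.21). miR-29a, miR-29b and miR-29c, which repress collagens, and the abundant miR-21 passed at no dose. The change of miR-21 was -0.08, 0.05 and 0.01, and that of miR-29a was 0.03, -0.07 and -0.14.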

How the data were processed

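Per the labels' protocols, RNA of each liver, small RNAs included, came from the miRVana kit, and 100 ng of it was labelled with a Cyanine 3 dye. Per the file headers, the authors used Agilent's Feature Extraction software, version 10.7.3.1, to give each spot an intensity after background subtraction, not scaled from array to array. The authors also deposited a value table on the log2 scale for 692 miRNAs, with column medians from 5.04 to 5.06. Its columns were named by sample; its scaling and centring are not given in the sources used here, and it served as an alternative.

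Here control and outlier-marked spots were left out, the spots of a probe (10 for each probe of these miRNAs, 7 at least after this step) were averaged, and the signal was scaled per array to the 75th percentile of 223 probes found above background throughout. Values under the floor were set to it, and log2 was taken. Of the 2 probes of each of these miRNAs the brighter was used. The array held 696 miRNAs, of which 495 were never detected, 176 were tested and 122 were detected throughout. Tests used limma 3.58.1 in R 4.3.3 over all 4 groups with the slide (3 slides, each with all 4 groups) as a block, with Benjamini-Hochberg adjustment over 176 miRNAs, and the script was tested on simulated data. Correlations used 100000 permutations, and differences within an array exact permutations (scipy 1.17.1). Each array is another mouse, and the number of arrays limits the precision. The smallest two-sided exact p is 0.00794 for 5 against 5 and 0.0159 for 4 against 5 arrays.

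The members and lists were chosen with earlier results of these data known. The text names the members, the 3 miRNAs most like each, and list members that passed the threshold or that define a cell type; other names in it were chosen after their values were seen. Normexp background correction used median signals, since the scanner output held no mean signal, which had been planned for it. Differences and correlations with miR-145 were planned and could not be computed, as it was at the floor throughout. Alternatives covered scaling, background, the value table, the slide block, the floor, the filter on dim probes, the probe rule, the samples in the fit and each array left out. Normexp, detection by the scanner software's flag per miRNA, and leaving out the 3 arrays with the highest miR-143 were added after seeing the data.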

Additional observations from a re-analysis of the deposited data

Results flagged for a closer look

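In 2 of 17 sets of member and dose group (those with no value at the floor), 1 array lay far from the others of its group by Dixon's ratio at the 95% level, where chance gives about 1 in 20. In high dose replicate 8 miR-143 was at -1.86, and the other 4 high dose arrays ran from -3.64 to -3.32. In the same liver miR-199b* was at -3.40, and the others ran from -4.35 to -4.18.

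High dose replicate 8 was also the array with the highest miR-200a (0.09) and the largest sum of the 5 bile duct miRNAs (2.91). Its miR-122 of 6.41 was the lowest of the 19 arrays, though close to the 6.43 of control replicate 22. The part of these in its miR-143 was not tested. Middle dose replicates 14 and 20, which held the 2 highest miR-143 levels, are not set apart in this way because they are 2 of the 4 arrays of their group.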

How the results depend on the processing

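Of 15 log2 changes (5 miRNAs, 3 doses), 170 of 201 values under other settings kept their direction and their side of the threshold, 3 passed it and 28 changed sign. With each array left out, 271 of 285 kept both, 2 passed and 12 changed sign. None of the 15 main values had passed, and the cause of the sign changes was not tested.

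No scaling gave calls for 2 of 5 members at the high dose and 3 for the trend. It turned the low dose changes of miR-143, miR-199a-3p and miR-199a-5p to -0.053, -0.0065 and -0.012, the middle dose changes of miR-199a-3p, miR-199a-5p, miR-199b* and miR-214 to -0.29, -0.23, -0.066 and -0.038, and the high dose change of miR-143 to -0.61. Quantile normalization gave 1 call at the high dose and 1 for the trend, with -0.021 and -0.034 for miR-143 and miR-199a-5p at the low dose, -0.073 for miR-199a-5p at the middle and -0.28 for miR-143 at the high dose. The percentile over all probes gave -0.21, -0.15 and -0.060 for miR-199a-3p, miR-199a-5p and miR-214 at the middle and -0.17 for miR-143 at the high dose. At the high dose, spike-in scaling gave 0.012 and 0.10, and no slide block 0.025 and 0.018, for miR-199a-3p and miR-214, and slide as a random block 0.0081 for miR-214. Normexp gave 0.11, 0.30, 0.31 and 0.39 for miR-199a-3p, miR-199a-5p, miR-199b* and miR-214. Without the 3 arrays highest in miR-143, its middle dose change was -0.18, its high dose change -0.23, the high dose change of miR-214 0.033, and r of miR-143 and miR-214 -0.051.

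Normexp turned the shifts of miR-199a-3p minus miR-199a-5p to -0.12, -0.30 and -0.24 and of miR-199a-3p minus miR-214 to -0.19, -0.37 and -0.35 over the 3 doses. The value table turned the latter to -0.0080 at the low and, for the high dose, -0.053. A floor 4 times higher put miR-199a-5p, miR-199b* and miR-214 wholly on it and gave no value for their changes, for within-array differences or for pairs other than miR-143 with miR-199a-3p (r = 0.42, permutation p = 0.0755). Leaving out 1 array gave ranges of 0 to 1 calls at the middle dose, -0.21 to 0.25 for miR-143, -0.18 to 0.049 for miR-199a-3p and -0.068 to 0.070 for miR-214 at the high dose, and -0.11 to 0.42 for r of miR-143 and miR-214. The ranges for miR-199a-3p minus miR-199a-5p were -0.063 to 0.049 at the low and -0.075 to 0.086 at the middle dose, and for miR-199a-3p minus miR-214 -0.043 to 0.086 for the middle dose and -0.092 to 0.079 for the high dose. Counts of all miRNAs called, against 14, 13 and 17 at the 3 doses, 13 for any difference and 2 for the trend, ranged under other settings from 0 to 14, 1 to 39, 1 to 79, 1 to 22 and 1 to 110. With 1 array left out they ranged from 4 to 15, 2 to 39, 3 to 35, 2 to 26 and 2 to 29. No paired analysis was possible because the groups share no replicate numbers.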
